A study of Mus musculus with 2 samples.

Results

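The cells described here were adrenal endothelial cells in which at least 2 of the 5 genes Ccl2, Ch25h, Sele, Vcam1 and Icam1 were detected, that is, had at least 1 unique molecular identifier (UMI, 1 counted transcript). They also had at least 1 UMI of Pecam1, Cdh5 or Kdr, which are endothelial genes, and none of C1qa, C1qb and Tyrobp, which are macrophage genes. The choice was made from measured values and found 140 of 9493 endothelial cells, 80 in the WT library and 60 in the VEGF/LysM library. These are called gated cells, the 5 genes are called gate genes, and the 9353 endothelial cells that did not pass are called other endothelial cells (5825 WT and 3528 VEGF/LysM).

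The study profiled endothelial cells of the adrenal gland by droplet single-cell RNA sequencing (10x Genomics). There was 1 library from wild-type (WT) mice and 1 from mice with the genotype VEGF/LysM, a name that pairs vascular endothelial growth factor with LysM, the lysozyme M gene of myeloid cells. The mice were female and aged 12 weeks, and the sources used here do not state the exact allele or the number of mice per library. Glands were minced and digested for 10 min at 5 °C, and viable CD31+ CD45- cells were sorted. With 1 library per group there was no replicate check, no p-value is given, and every difference between WT and VEGF/LysM is a difference between 2 libraries.

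When inflammatory signals such as TNF, IL-1 or bacterial products reach an endothelial cell, the transcription factor NF-kB enters the nucleus. It switches on the adhesion molecules E-selectin (Sele), VCAM-1 (Vcam1) and ICAM-1 (Icam1), which let leukocytes roll, adhere and cross the vessel wall, and chemokines such as Ccl2, which draws monocytes. NF-kB also induces its own inhibitors, among them IkBa (Nfkbia) and A20 (Tnfaip3), and in most tissues these adhesion molecules are most readily induced in venules.

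The libraries held 6276 WT barcodes with 8606348 UMIs and 3807 VEGF/LysM barcodes with 10323972 UMIs, and the VEGF/LysM library was deeper per cell (median 2336 UMIs against 1174.5). Gated cells held 168499 UMIs in WT and 241232 in VEGF/LysM. Their median was 1837 UMIs in WT, against 1187 in other endothelial cells, and 3456.5 against 2330.5 in VEGF/LysM. The chance of detecting 2 genes grows with depth, so the deeper sampling of gated cells goes with the gate. Levels are therefore given as CPM, the UMIs of a gene summed over a set of cells and scaled to the same total of UMIs for every set. The median mitochondrial share was 1.69% in both WT sets, and 1.49% in gated against 1.90% in other VEGF/LysM cells. The libraries shared 10 barcodes, 1 of which was a gated cell. Among the barcodes with the highest Scrublet doublet scores were 9 of the 80 WT gated cells and 2 of the 60 VEGF/LysM gated cells, against 5.20% and 3.15% of other cells. All intervals are 95% intervals and cover counting error only.

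The gate genes themselves describe how the cells were chosen and support no finding. In WT, Icam1 was detected in 59 of the 80 gated cells (73.8%), Vcam1 in 58 (72.5%), Ch25h in 28, Ccl2 in 22 and Sele in 15. In VEGF/LysM, Icam1 was detected in 55 of 60 (91.7%), Vcam1 in 38 (63.3%), Ch25h in 17, Ccl2 in 10 and Sele in 10. Cells with Vcam1 and Icam1 and no other gate gene were the most frequent kind, 32 cells in WT and 28 in VEGF/LysM. Sele was found in 18.8% of gated cells in WT and 16.7% in VEGF/LysM, and Ccl2 in 27.5% and 16.7%. E-selectin and Ccl2 therefore marked a minority of the set, and the cells are not named after them. No cell in either library had all 5 genes.

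Just inside the threshold were 63 WT and 52 VEGF/LysM cells with exactly 2 gate genes, and 17 and 8 cells had 3 or 4. Just outside it were 640 WT and 451 VEGF/LysM endothelial cells with 1 gate gene, while 5185 and 3077 had 0. In other endothelial cells Icam1 was detected in 7.47% (WT) and 9.21% (VEGF/LysM), Vcam1 in 2.16% and 2.38%, and Sele in 0.223% and 0.142%. As a check against free RNA, cells with at least 2 of the 3 macrophage genes were examined (40 WT cells with a median of 2930.5 UMIs and 61 VEGF/LysM cells with 4083). Sele was detected in 0 of the 40, which allows a share of up to 7.5%, and in 1 of the 61 (1.64%). The WT limit is too wide to bound the Sele share of other endothelial cells. Vcam1, which macrophages also express, was detected in 22.5% and 31.1% of these cells, Icam1 in 15% and 14.8%, Ch25h in 5% and 11.5%, and Ccl2 in 5% and 3.28%. The shares of these 4 genes in other endothelial cells were lower than that. The cells with macrophage genes were deeper, and their own expression was not separated from free RNA. The check therefore cannot decide whether detection of these genes outside the gate is background.

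**Figure D1:**
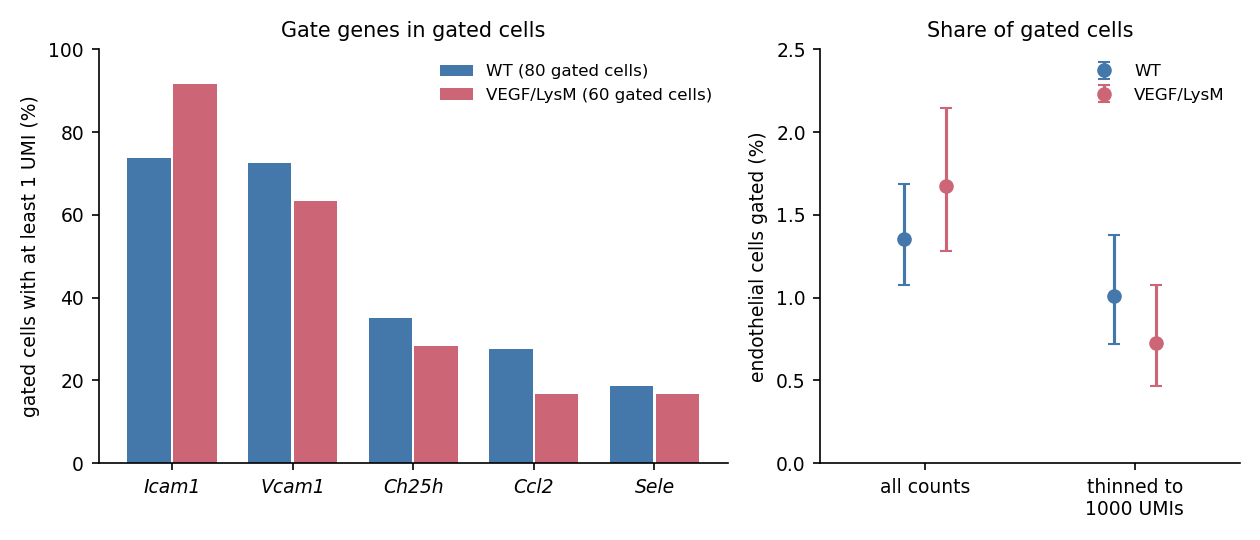
Left, percent of gated cells with at least 1 UMI of each gate gene in WT (80 cells) and VEGF/LysM (60 cells). Right, percent of endothelial cells that passed the gate, with 95% exact binomial intervals, on all counts and with each cell thinned to 1000 UMIs. Icam1 (73.8% and 91.7%) and Vcam1 (72.5% and 63.3%) were detected in most gated cells and Sele in few (18.8% and 16.7%), and the order of the libraries turned over with thinning.

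Each gate gene was also read in the cells picked by the other 4. The 5 genes were themselves chosen on these data, so these values describe the set and support no finding. Ccl2 was 128-fold higher in those cells than in the remaining endothelial cells in WT and 30.1-fold in VEGF/LysM. Ch25h, the enzyme that makes 25-hydroxycholesterol, was 17.0-fold and 17.3-fold higher. Sele was 17.2-fold and 65.0-fold higher, with 10 UMIs in 7 cells and 21 UMIs in 3 cells behind these values. Vcam1 was 12.8-fold and 17.0-fold higher, and Icam1 5.09-fold and 20.7-fold.

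Gene positions in the mm10 genome were as follows. Ccl2 lies on chromosome 11 from 82035571 to 82037453 on the plus strand, and Ch25h on chromosome 19 from 34473778 to 34475164 on the minus strand. Sele lies on chromosome 1 from 164048234 to 164057677 (plus), Vcam1 on chromosome 3 from 116109949 to 116129688 (minus) and Icam1 on chromosome 9 from 21015985 to 21028817 (plus). The promoters of Icam1 and Sele are shown because these adhesion molecules are classical NF-kB target genes. Each sequence runs from 250 bases before to 50 bases after the gene start in RefSeq (GRCm38.p6), at chr9:21015690-21015989 (plus strand) for Icam1 and chr1:164047984-164048283 (plus strand) for Sele. Capitals mark matches to GGNNNTTCC, a short form of the NF-kB motif, on either strand.
Icam1: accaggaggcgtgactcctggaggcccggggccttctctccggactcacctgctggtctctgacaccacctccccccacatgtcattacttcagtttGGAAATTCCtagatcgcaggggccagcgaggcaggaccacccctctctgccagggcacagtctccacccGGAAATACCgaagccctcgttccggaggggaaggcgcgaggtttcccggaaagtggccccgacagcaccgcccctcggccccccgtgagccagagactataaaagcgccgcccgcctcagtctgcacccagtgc
Sele: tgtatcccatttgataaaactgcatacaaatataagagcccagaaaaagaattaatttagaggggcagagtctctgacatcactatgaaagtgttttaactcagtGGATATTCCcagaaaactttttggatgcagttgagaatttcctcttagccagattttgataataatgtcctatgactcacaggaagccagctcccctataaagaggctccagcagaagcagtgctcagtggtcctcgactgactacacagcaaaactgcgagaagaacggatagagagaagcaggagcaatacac
The Icam1 promoter held 2 matches, 153 and 84 bases before the start, and the Sele promoter 1, at 145 bases before it. The Ch25h promoter held none. Of 32851 mouse promoters of this length, 6070 (18.5%) held a match, so a match by itself is common and describes letters, not binding.

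Gated cells made up 1.35% of endothelial cells in WT (80 of 5905, interval 1.08 to 1.68) and 1.67% in VEGF/LysM (60 of 3588, interval 1.28 to 2.15). With each cell thinned to 1000 UMIs, which left out 2141 WT and 290 VEGF/LysM filtered cells with fewer, the shares were 1.01% (39 of 3857, interval 0.720 to 1.38) and 0.724% (24 of 3314, interval 0.465 to 1.08). The intervals of the libraries overlapped both ways, and the order changed with depth. No difference in the share of gated cells between the libraries was detectable at this depth. Among single gate genes, thinned detection in all endothelial cells was 6.40% in WT and 4.95% in VEGF/LysM for Icam1, and 2.67% and 1.99% for Vcam1. It was 1.11% and 0.634% for Ch25h, 0.570% and 0.181% for Ccl2, and 0.389% and 0.121% for Sele. All 5 were thus lower in VEGF/LysM at that depth, but the intervals of the libraries overlapped for each gene. On all counts Icam1 (8.37% in WT and 10.6% in VEGF/LysM) and Vcam1 (3.12% and 3.40%) were higher in VEGF/LysM. Ch25h, Ccl2 and Sele were lower there on all counts as well. Thinned cells with exactly 1 gate gene were 8.84% in WT (interval 7.96 to 9.78) and 6.34% in VEGF/LysM (5.53 to 7.22), and these intervals did not overlap. On all counts the order was the other way, at 10.8% in WT and 12.6% in VEGF/LysM.

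Outside the gate genes, gated cells held more RNA of growth factors and chemokines that act on myeloid, T and mesenchymal cells, and of NF-kB subunits and inhibitors. They held less RNA of Esm1, Npr3, Igfbp3 and other genes that other adrenal endothelial cells carried at high levels. The general endothelial genes differed by less than 1.5-fold. A gene is called higher or lower when its CPM differed at least 1.5-fold in the same direction in both libraries. Of 6165 genes with a mean of at least 30 CPM over the 4 cell sets, 176 (2.85%) were higher in gated cells and 146 (2.37%) were lower. Because that mean includes the gated cells, a gene under 30 CPM in both sets of other cells could enter only through its gated level. Pdgfa, Noct, Cxcl10, Cxcl16, Nfkb2 and Traf1, among others described below, were such genes. In WT alone 707 (11.5%) were at least 1.5-fold higher and 869 (14.1%) lower, and in VEGF/LysM alone 562 (9.12%) and 585 (9.49%). At 30 CPM a WT gated sum is about 5 UMIs, and 61 genes were higher in WT and lower in VEGF/LysM while 69 did the opposite, so many single genes near the minimum are not resolved. Among 941 genes with at least 200 CPM, 17 (1.81%) were higher, 14 (1.49%) were lower, and 0 went in opposite directions.

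Csf1, the growth factor on which macrophages depend, was at 380 CPM in WT gated cells (64 UMIs in 34 cells, interval 293 to 485) against 136 CPM in other cells. The VEGF/LysM level was 319 CPM (77 UMIs in 32 cells, interval 252 to 399) against 91.7. Gated cells were thus 2.80-fold and 3.48-fold higher, and their intervals lay above the other cells in both libraries. Cxcl10, a chemokine for activated T cells, was at 249 CPM against 10.2 in WT and at 49.7 CPM against 7.81 in VEGF/LysM. In WT 27 of its 42 UMIs came from 1 cell, so its level there rests largely on that cell, although 12 gated cells held the transcript.

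Cxcl16, which attracts CXCR6-bearing lymphocytes, had log2 ratios of 1.99 in WT on 16 gated UMIs and 1.29 in VEGF/LysM on 10. Cx3cl1, the membrane-bound chemokine fractalkine, had log2 ratios of 0.89 and 0.88, on 9 and 15 gated UMIs. With Csf1 and Cxcl10 these made 4 of the 9 chemokine and cytokine genes tested that were higher, and 0 were lower, beside 2.85% and 2.37% of all genes. Cxcl10, at 10.2 and 7.81 CPM in other cells, and Cxcl16, also under 30 CPM there, met the minimum of 30 CPM only through their gated levels. The count of 4 is thus partly set by the minimum and is no support by itself. The list's median log2 ratio was 0.20 in WT and 0.69 in VEGF/LysM, where over all genes tested it was -0.00 and 0.02. Not all members followed. Cxcl12, the ligand of CXCR4, was lower in VEGF/LysM gated cells (91.2 against 214 CPM, log2 ratio -1.23) and differed less in WT (125 against 160, -0.36). Il33, Il15 and Tnfsf10 lay between 0.09 and 0.69 in both libraries, and Cxcl9 had -0.21 and 0.53.

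Pdgfa, the A chain of platelet-derived growth factor, which acts on mesenchymal cells, was at 166 CPM in WT gated cells (28 UMIs in 18 cells, interval 110 to 240) and 133 CPM in VEGF/LysM (32 UMIs in 13 cells, 90.7 to 187). Other endothelial cells held 29.4 and 26.9 CPM. Gated cells were 5.66-fold and 4.92-fold higher, and the intervals lay well above the other cells. Pdgfa was under 30 CPM in both sets of other cells, so it met the minimum only through its gated level. Plaur, the receptor that binds urokinase at the cell surface, was also higher, at 166 against 68.6 CPM and 170 against 63.2 CPM. It was the only 1 of the 8 haemostasis genes tested that was higher, and 0 were lower, beside 2.85% and 2.37% of all genes. The list as a whole is not read from 1 gene.

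Of the 21 genes tested from a list of NF-kB subunits, regulators and targets, 8 were higher in gated cells in both libraries and 0 were lower, where 2.85% of all genes were higher. In WT alone 12 were at least 1.5-fold higher and 4 lower, and in VEGF/LysM alone 11 and 1. Over all genes 11.5% were higher and 14.1% lower in WT, and 9.12% and 9.49% in VEGF/LysM. The 8 became 5 against other cells with the venous genes Bgn or Sema3d, and 3 with each gene's highest gated cell left out. The list's median log2 ratio was 0.64 in WT and 0.59 in VEGF/LysM. Summed over the list, gated cells held 2748 CPM in WT (interval 2503 to 3010) against 1966 in other cells, and 2537 CPM (2340 to 2746) against 1786 in VEGF/LysM. Higher were the subunits Relb, Rela, Rel and Nfkb2, the inhibitors Nfkbia, Nfkbiz and Tnfaip3, and the adaptor Traf1. Of these, Nfkb2 and Traf1 were under 30 CPM in both sets of other cells and met the minimum only through their gated levels. The count of 8 is thus partly set by the minimum and is no support by itself.

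Relb, the subunit of the non-canonical pathway, was at 190 CPM against 67.1 in WT (interval 130 to 268) and 166 against 47.9 in VEGF/LysM (118 to 226). Gated cells were 2.83-fold and 3.46-fold higher. Nfkb2, which encodes the precursor of its partner p52, was at 47.5 against 16.8 CPM and 45.6 against 15.6 CPM on 8 and 11 gated UMIs. Its mean reached 30 CPM only through the gated cells. The canonical subunit Rela was at 148 against 90.0 CPM (log2 ratio 0.72) and 124 against 82.3 CPM (0.59), and Rel had 0.88 and 0.84. Nfkb1, the precursor of p50, had 0.40 and 0.28 and did not reach 1.5-fold in either library.

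Nfkbia, the inhibitor IkBa, was at 493 CPM in WT gated cells against 286 in other cells and at 452 against 271 in VEGF/LysM. Its log2 ratios of 0.78 and 0.74 were alike in the libraries. Tnfaip3, the ubiquitin-editing enzyme A20, differed more, at 89.0 against 34.2 CPM in WT (log2 ratio 1.38) and 158 against 25.0 in VEGF/LysM (2.65). Nfkbiz, the nuclear regulator IkBz, had 1.08 and 0.62, and Traf1 2.28 and 1.38 on 10 and 9 UMIs. Genes of the upstream kinase and of cell survival did not follow in both libraries: Ikbkb had 0.60 and -0.11, Chuk 0.00 and -0.52, and Birc3 0.65 and 0.27. Tnip1, a partner of A20, lay on opposite sides (-0.76 on 6 UMIs and 1.14 on 24).

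**Figure D2:**
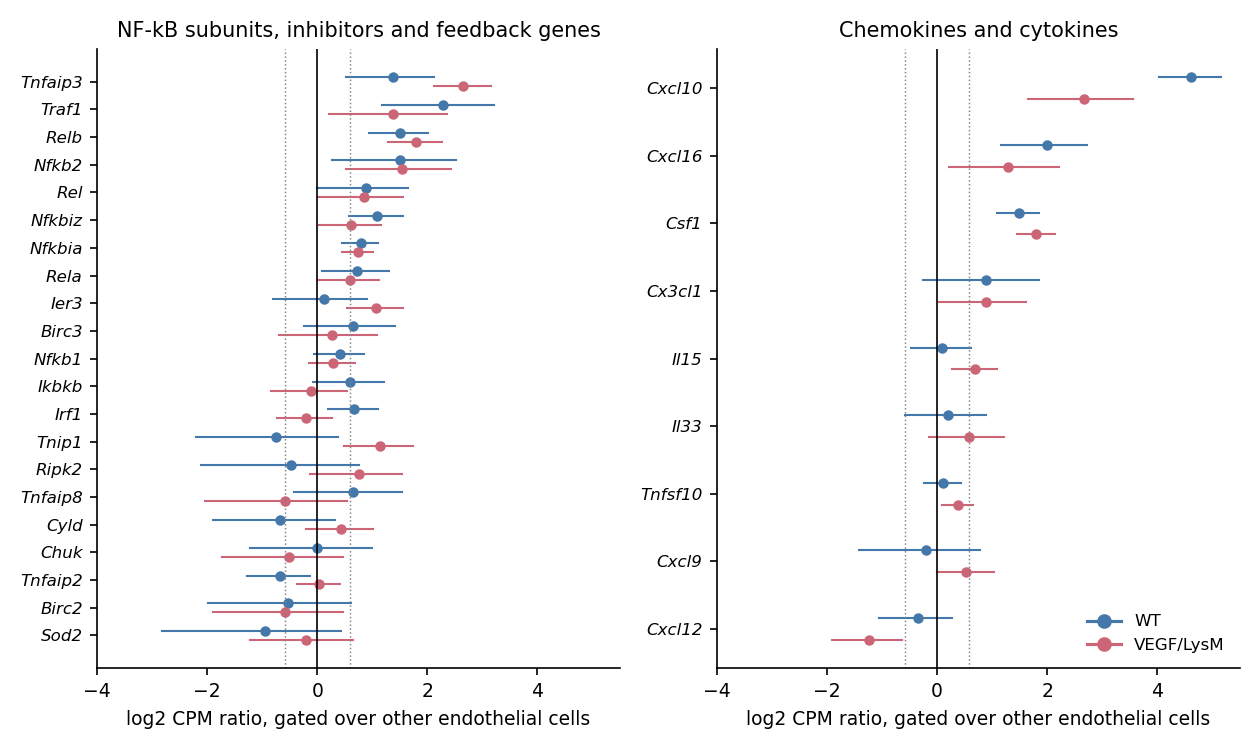
Log2 CPM ratio of gated over other endothelial cells for the 21 NF-kB genes and 9 chemokine and cytokine genes tested, WT in blue and VEGF/LysM in red, with 95% counting intervals and dotted lines at 1.5-fold. The 8 NF-kB genes, from Tnfaip3 down to Rela, and Cxcl10, Cxcl16, Csf1 and Cx3cl1 lie beyond the upper line in both libraries, and Cxcl12 lies to the left of 0.

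The promoters of Csf1, Cxcl10, Nfkbia and Neurl3, a ubiquitin ligase described below, are shown as examples of promoters with a match, from genes with more transcript in gated cells of both libraries. They were picked after the matches had been seen, and the promoters of Noct, Pdgfa, Creb5, Stx11, Bean1, Ppfia2 and Arhgap15 held none. They lie at chr3:107760420-107760719 (minus strand) for Csf1, chr1:36273376-36273675 (minus) for Neurl3, chr5:92348840-92349139 (minus) for Cxcl10 and chr12:55492598-55492897 (minus) for Nfkbia, again from RefSeq GRCm38.p6 with GGNNNTTCC matches in capitals.
Csf1: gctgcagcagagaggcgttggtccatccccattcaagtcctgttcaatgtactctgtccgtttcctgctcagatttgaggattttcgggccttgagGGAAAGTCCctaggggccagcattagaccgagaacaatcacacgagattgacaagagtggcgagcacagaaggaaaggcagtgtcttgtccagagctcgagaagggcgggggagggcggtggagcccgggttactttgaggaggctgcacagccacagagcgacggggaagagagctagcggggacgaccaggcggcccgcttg
Neurl3: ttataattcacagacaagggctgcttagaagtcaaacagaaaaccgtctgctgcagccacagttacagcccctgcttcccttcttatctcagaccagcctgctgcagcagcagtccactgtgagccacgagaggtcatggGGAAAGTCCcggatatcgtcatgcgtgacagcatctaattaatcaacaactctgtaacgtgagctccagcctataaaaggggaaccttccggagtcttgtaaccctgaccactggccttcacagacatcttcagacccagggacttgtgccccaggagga
Cxcl10: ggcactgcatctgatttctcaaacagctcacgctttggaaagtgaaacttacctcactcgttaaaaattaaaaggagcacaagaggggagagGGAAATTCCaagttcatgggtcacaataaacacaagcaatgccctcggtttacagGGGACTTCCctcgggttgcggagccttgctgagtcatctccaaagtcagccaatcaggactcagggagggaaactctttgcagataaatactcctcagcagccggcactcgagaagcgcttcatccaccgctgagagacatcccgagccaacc
Nfkbia: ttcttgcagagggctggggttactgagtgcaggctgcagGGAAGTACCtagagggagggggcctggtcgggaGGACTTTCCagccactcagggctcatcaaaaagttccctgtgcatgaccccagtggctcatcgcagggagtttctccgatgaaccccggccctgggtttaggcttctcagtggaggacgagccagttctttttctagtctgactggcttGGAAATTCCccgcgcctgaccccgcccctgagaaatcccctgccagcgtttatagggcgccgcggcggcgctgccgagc
Csf1 held 1 match at 154 bases before the start and Neurl3 1 at 110 bases, and both read GGAAAGTCC. Cxcl10 held 2, at 158 and 103 bases, and Nfkbia 3, at 211, 178 and 29 bases. Of the 12 genes named below as higher, 11 had a promoter in the RefSeq table and 4 (36.4%) held a match. Of 10 promoters of the genes named as lower, 3 (30%) did, so the shares of higher and lower genes were close. The longer form with another G in front, whose matches are a subset of these, was in 5.56% of all promoters, in 3 of the 11 and in 3 of the 10.

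Genes were named by a fixed rule, the 12 whose counting interval lay farthest above 0, and the 12 farthest below, in the library where it was nearest to 0. Besides Csf1, Cxcl10, Relb and Pdgfa, the higher genes were Noct, Neurl3, Creb5, Stx11, Bean1, Ppfia2, Flrt3 and Arhgap15. Cxcl10, Pdgfa, Noct, Stx11, Bean1 and Arhgap15 were under 30 CPM in both sets of other cells and could be named only through their gated levels. Noct, the NADP(H) phosphatase nocturnin, was at 107 CPM against 18.0 in WT (18 UMIs in 13 cells, interval 63.3 to 169) and 104 against 18.5 in VEGF/LysM (25 UMIs in 14 cells, 67.1 to 153). It was 5.92-fold and 5.60-fold higher, with nearly the same level in both libraries. Noct lies on chromosome 3 from 51224447 to 51251644 on the plus strand.

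Neurl3 (chromosome 1, 36264597 to 36274679, minus strand) was at 231 CPM against 68.9 in WT and 203 against 42.0 in VEGF/LysM, found in 28 and 26 gated cells. The transcription factor Creb5 had log2 ratios of 1.81 and 1.49, and the membrane-fusion protein Stx11 2.45 and 2.61 on 11 UMIs in each library. Bean1 had 3.28 and 2.79 on 13 and 10 UMIs. Ppfia2, a scaffold protein of the liprin family, had 1.45 and 1.38, and Flrt3, a cell-surface guidance ligand, 1.32 and 1.28.

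Arhgap15, a Rac regulator of leukocytes, was found only in gated cells with Ptprc, the gene of CD45. All 7 WT UMIs were in 1 cell and all 22 VEGF/LysM UMIs in 2 cells, and these were all the gated cells with Ptprc. The WT cell also held all 13 Igkc and 5 Cd79a UMIs, which mark B cells, and 1 VEGF/LysM cell all 5 Cd3d and 15 Ccl5 UMIs, found in T cells. They passed although CD45- cells were sorted. In the WT cell were 8 of 9 H2-Aa and 14 of 20 Cd74 UMIs, so the WT levels of MHC class II genes rest mostly on it. Without the 2 VEGF/LysM cells Cd74 was at 101 CPM there, with 10 of its 22 UMIs in 1 cell, and in WT without the 1 cell at 36.5 CPM. For the 3 class II genes tested, all higher in gated cells beside 2.85% of all genes, the median log2 ratio was 2.67 in WT and 0.65 in VEGF/LysM.

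**Figure D3:**
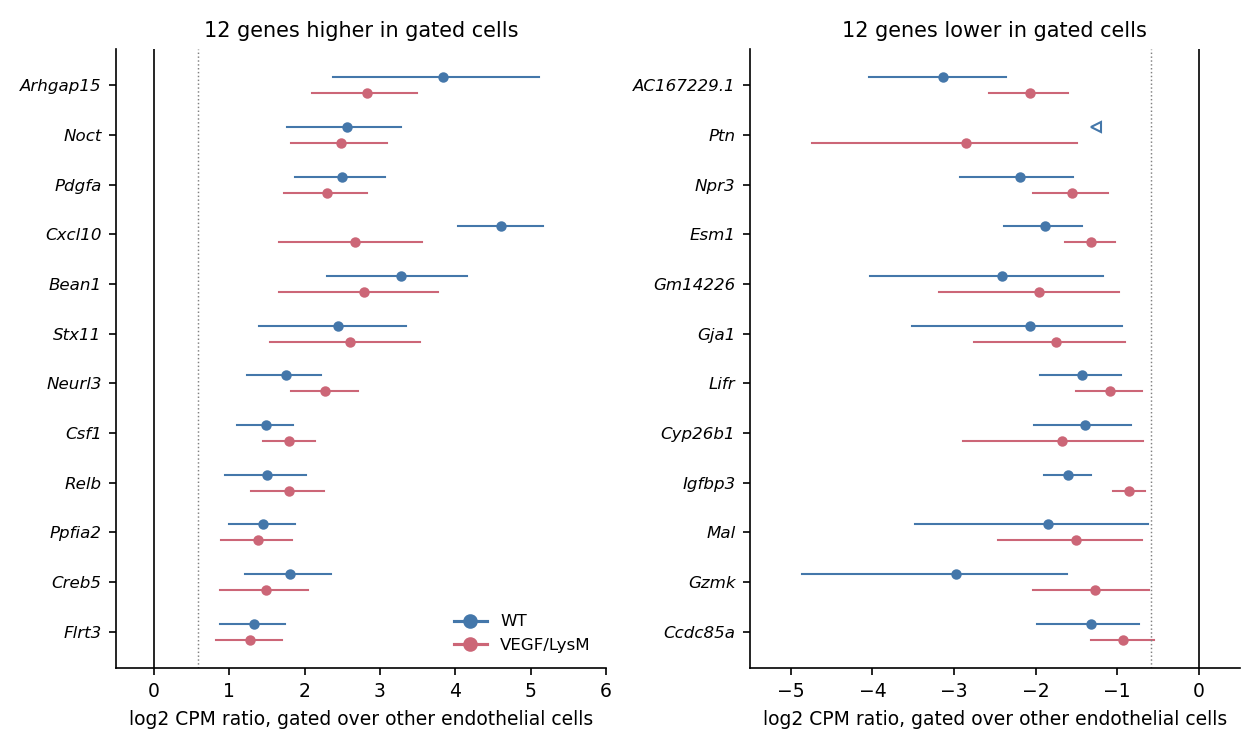
Log2 CPM ratio of gated over other endothelial cells for the 12 genes named as higher (left) and the 12 named as lower (right), WT in blue and VEGF/LysM in red, with 95% counting intervals and dotted lines at 1.5-fold. All intervals shown stay on one side of 0 in both libraries, which the naming rule itself requires. The open triangle is Ptn in WT, which had 0 gated UMIs and is drawn at the upper bound of its interval.

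At the stricter minimum of 200 CPM, the 17 higher genes included the metalloprotease Adamts1 at 831 against 286 CPM in WT and 423 against 220 CPM in VEGF/LysM, and the basement-membrane-associated protein Tinagl1 at 1015 against 463 and 634 against 410. The crosslinking enzyme Tgm2 (log2 ratio 0.90 and 1.20), the cyclin Ccnd1 (0.94 and 0.75), the GTPase Rhoc (1.17 and 0.66) and the phosphodiesterase Pde4b (0.89 and 0.62) were also among them, beside Csf1, Nfkbia and Bgn. These were picked from the 17 after their values had been seen. They rest on more UMIs than most of the 12 genes above, and their differences were smaller.

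Lower genes were led by transcripts that many other adrenal endothelial cells carried. Esm1, the secreted proteoglycan endocan (chromosome 13, 113209659 to 113218098, plus strand), was at 226 CPM in WT gated cells (38 UMIs in 17 cells, interval 160 to 310) against 835 in other cells. In VEGF/LysM it was at 373 CPM (90 UMIs in 11 cells, 300 to 459) against 936, and 26 of the 90 UMIs came from 1 cell. Gated cells were 3.70-fold and 2.51-fold lower.

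Npr3, the clearance receptor for natriuretic peptides, was at 113 CPM against 516 in WT and 170 against 498 in VEGF/LysM, where 20 of 41 UMIs came from 1 cell. Igfbp3, which binds insulin-like growth factors, was at 605 against 1841 CPM in WT and 920 against 1667 in VEGF/LysM. Against other cells weighted to the gated cells' depth, its VEGF/LysM log2 ratio of -0.86 became -0.55, short of 1.5-fold. Lifr, the receptor of leukaemia inhibitory factor, was at 214 against 575 CPM and 224 against 475 CPM, in 25 gated cells of each library. All 4 genes were lower in both libraries, with larger ratios in WT.

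The gap-junction protein Gja1 had log2 ratios of -2.07 and -1.75, on 6 and 11 gated UMIs, and Cyp26b1, which degrades retinoic acid, -1.40 and -1.67. The growth factor Ptn had 0 UMIs in WT gated cells, where other cells had 52.8 CPM, at least 2.97-fold lower if 3 counts are allowed. In VEGF/LysM it was at 16.6 against 120 CPM. The non-coding RNA AC167229.1 (-3.13 and -2.07), Gm14226 (-2.41 and -1.97), Mal (-1.85 and -1.50) and Ccdc85a (-1.32 and -0.93) complete the named lower genes with Gzmk (-2.98 and -1.28). Gzmk is uncertain, because its gene body on the minus strand (chromosome 13, 113171608 to 113225908) contains Esm1 on the plus strand. Whether counting used strand is not stated, so their reads cannot be told apart.

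The gated cells carried the general endothelial genes at levels near those of other cells. Of 10 such genes, among them Cldn5, Emcn, Tie1 and Erg, 0 were higher and 0 lower, and the median log2 ratio was -0.19 in WT and -0.00 in VEGF/LysM. The junction protein Cldn5 was at 635 against 588 CPM in WT and 738 against 680 in VEGF/LysM. Of 12 further genes of leukocyte adhesion and passage, 0 were higher and 0 lower (medians -0.05 and -0.09). Icam2, which resting endothelium carries, had 0.44 and 0.16, Cd34 -0.09 and -0.10, and Esam -0.38 and -0.08. Outside the gate genes, the higher level was thus not shared by the other adhesion molecules tested. Selp, P-selectin, was under the minimum, with 1 UMI in WT and 4 in VEGF/LysM gated cells.

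Cytokine receptors were mostly level. Of 15 receptor and adaptor genes, 0 were higher and 1, Lifr, was lower, beside 2.85% and 2.37% of all genes, with medians of 0.01 and 0.29. The TNF receptor Tnfrsf1a had -0.14 and 0.07, and Il6st, the shared subunit of IL-6 family receptors, 0.49 and 0.85. The IL-1 receptor Il1r1 was higher in VEGF/LysM gated cells (104 against 40.2 CPM) and level in WT (41.5 against 41.2). Of 14 immediate early genes, 0 were higher in both libraries, with medians of 0.46 and 0.28. Jun was at 1223 against 925 CPM and 1078 against 806 CPM, and Junb had 0.58 and 0.81. Of 26 interferon-induced genes and 13 genes of MHC class I presentation, 0 were higher and 0 lower in both libraries. Their medians were -0.19 and 0.14 for the first list and 0.12 and 0.19 for the second. Of 10 STAT3 and acute-phase genes and 7 heat-shock genes, likewise 0 were called.

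Genes of vessel type differed in part between gated and other endothelial cells. Of 8 venous genes tested, 2 were higher and 0 lower in both libraries, where 2.85% of all genes were higher. In WT alone 3 were higher and in VEGF/LysM alone 6, beside 11.5% and 9.12% of all genes, with medians of 0.53 and 0.93. The proteoglycan Bgn was at 315 against 161 CPM in WT and 257 against 105 in VEGF/LysM, and the guidance molecule Sema3d at 196 against 82.5 and 141 against 55.4. Nr2f2, the transcription factor that specifies venous identity, had 0.50 and 0.72. Thinned to 1000 UMIs, Bgn or Sema3d was detected in 26 of 72 WT gated cells (36.1%, interval 25.1 to 48.3) against 18.3% of other cells. The VEGF/LysM share was 13 of 58 (22.4%, 12.5 to 35.3) against 9.36%. In both libraries the interval of gated cells lay above the share in all other cells, but it held the share in cells with 1 gate gene (25.8% and 19.7%). Most gated cells had neither gene at that depth. On all counts, where gated cells were deeper, 35 of 80 WT (43.8%) and 36 of 60 VEGF/LysM gated cells (60%) had either gene. The shares were then 18.8% and 17.5% of other cells, and 31.7% and 34.1% of cells with 1 gate gene.

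Of 11 arterial genes tested, 4 were lower in both libraries and 0 higher, where 2.37% of all genes were lower. In WT alone 7 were lower and 0 higher (median -0.90), and in VEGF/LysM alone 5 were lower and 2, Mgp and Eln, higher (median -0.16). Over all genes 14.1% were lower and 11.5% higher in WT, and 9.49% and 9.12% in VEGF/LysM. The 4 were the transcription factor Sox17 (log2 ratio -1.59 and -0.70), the Notch ligand Dll4 (-0.90 and -1.12), the ephrin Efnb2 (-1.04 and -1.11) and Ptn. No gated cell of 72 and 58 held 2 of the arterial genes Ptn, Tspan8 and Lgr5 at 1000 UMIs, which allows up to 4.17% and 5.17%, where other cells held 1.00% and 2.27%. Of 10 genes of continuous capillaries, 2 were lower in WT (median -0.35) and 9 in VEGF/LysM (median -0.99), beside 14.1% and 9.49% of all genes. The 2 that were lower in both were Car4 (-1.26 and -1.61) and the water channel Aqp7 (-1.47 and -1.40). The fatty acid carrier Cd36 had -0.52 in WT and -1.48 in VEGF/LysM. Against other cells with Plvap it had 0.81 and 0.50, and against those with Bgn or Sema3d 0.57 and 0.04. At 1000 UMIs Cd36 was detected in 20.8% and 24.1% of gated cells, against 19.5% and 28.2% of other cells. Both Cd36 and Car4 were detected in 4.17% and 5.17%, against 4.66% and 9.94%. Of 12 genes on a list for fenestrae and caveolae, 3 were lower and 0 higher, beside 2.37% and 2.85% of all genes. The 3 were Esm1, Npr3 and Igfbp3, which encode no part of either structure, and no other member was called. Plvap, which forms the diaphragms of fenestrae, had 0.48 and 0.43, and at 1000 UMIs it was detected in 70.8% of WT gated cells (58.9 to 81.0) and 58.6% in VEGF/LysM (44.9 to 71.4), against 56.8% and 50.7%. Cells with both Esm1 and Npr3 were 2 of 72 and 1 of 58, against 14.5% and 15.4% of other cells. On all counts they were 7 of 80 and 9 of 60, against 17.8% and 23.8% of other cells.

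Because genes of vessel type differed in part between the sets, the named genes were also compared with other endothelial cells in which Bgn or Sema3d was detected (1097 WT and 616 VEGF/LysM cells). Most higher genes stayed at least 1.5-fold higher, and none of the 11 lower genes drawn was 1.5-fold lower in both libraries. At 200 CPM, 10 of 947 genes (1.06%) were higher and 4 (0.422%) lower against these cells. Noct had log2 ratios of 2.78 and 3.02, Pdgfa 1.92 and 1.62, Relb 1.49 and 1.60, Neurl3 1.29 and 1.57, Csf1 1.18 and 1.19, and Nfkbia 0.82 and 0.79. Ppfia2 (0.39 and 0.04) and Flrt3 (0.24 and -0.10) no longer reached 1.5-fold. Esm1 became 0.11 and 0.35, Npr3 -0.36 and 0.44, and Igfbp3 -0.17 and 0.31. Against other cells with Plvap, in contrast, Esm1 stayed at -2.00 and -1.68 and Csf1 at 1.35 and 1.44, and 15 of 934 genes (1.61%) were higher and 12 (1.28%) lower at 200 CPM.

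**Figure D4:**
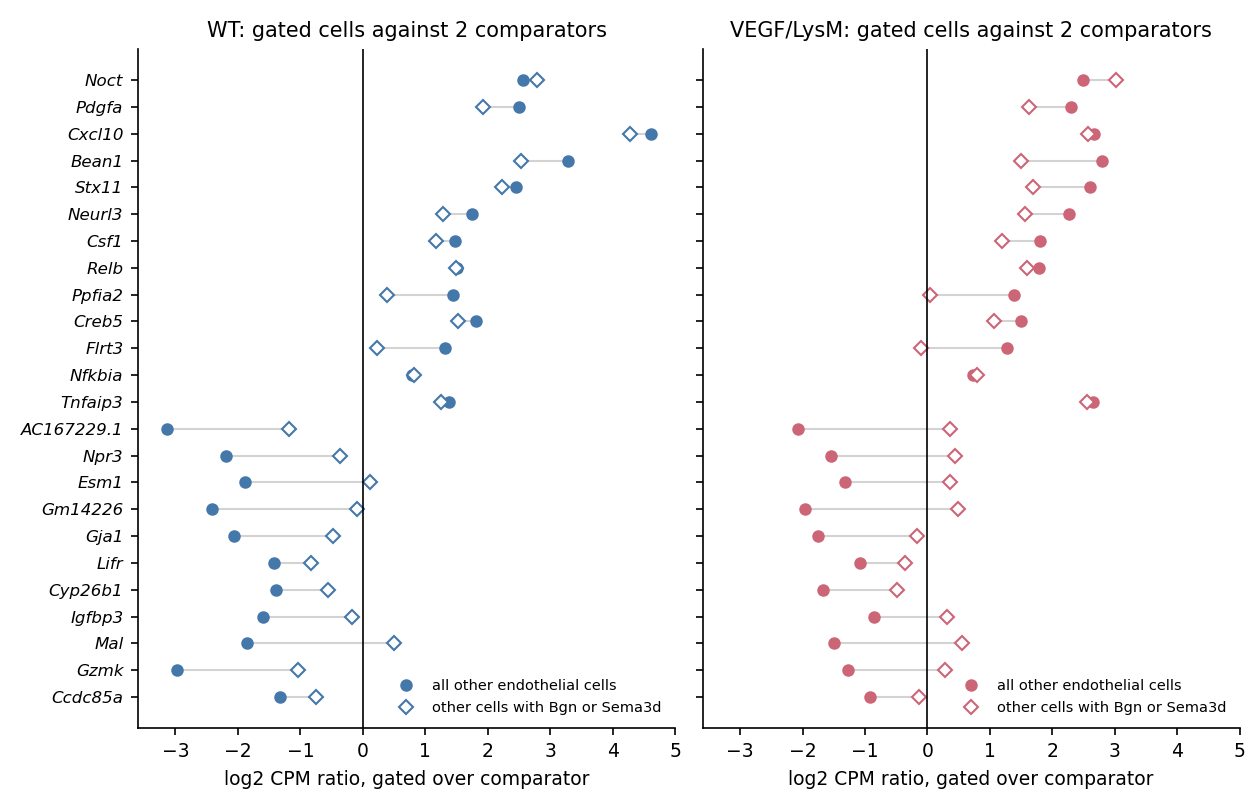
Log2 CPM ratio of gated cells over all other endothelial cells (filled circles) and over other endothelial cells with Bgn or Sema3d (open diamonds), WT on the left and VEGF/LysM on the right, for named genes with Nfkbia and Tnfaip3 and without Arhgap15 and Ptn. Diamonds of Noct, Pdgfa, Csf1 and Relb stay well to the right of 0, and diamonds of Esm1, Npr3 and Igfbp3 move to about 0.

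Levels also changed with the number of gate genes in a cell. Csf1 was at 122 CPM in WT endothelial cells with 0 gate genes, 222 with 1, 299 with 2 and 656 with 3 or 4 (25 UMIs, interval 425 to 968). In VEGF/LysM it was at 86.2, 120, 287 and 467 CPM. Neurl3 went from 62.4 to 108, 215 and 289 CPM in WT and from 36.3 to 71.5, 181 and 303 in VEGF/LysM. Noct, Pdgfa and Nfkbia followed the same order in both libraries. Nfkbia was at 276, 351, 406 and 787 CPM in WT and 263, 316, 368 and 840 in VEGF/LysM. Cells with 1 gate gene, which are outside the gate, thus lay between cells with 0 and gated cells for each of these 5 genes. They were chosen as higher in gated than in other cells, so a rise into the gate was set by that choice. Median depth also rose from 0 to 1 and 2 gate genes. It was 1156, 1478.5 and 1809 UMIs in WT and 2256, 2835 and 3456.5 in VEGF/LysM.

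Esm1 ran the other way, at 877 CPM with 0 gate genes, 577 with 1, 215 with 2 and 262 with 3 or 4 in WT. In VEGF/LysM it was at 996, 626, 454 and 0 CPM, where 0 UMIs in 8 cells allow up to 70.0 CPM. Lifr was lower at each step, at 591, 479, 238 and 131 CPM in WT and 490, 398, 242 and 140 in VEGF/LysM. Esm1 and Lifr were chosen as lower in gated cells, so their fall into the gate was likewise set by that choice. Not every gene followed the number. Relb in WT was at 207 CPM with 2 gate genes and 131 with 3 or 4, on 5 UMIs, and Tnfaip3 in WT at 107 and 26.2 CPM, on 1 UMI. The NF-kB list summed to 1904, 2345, 2370 and 4041 CPM in WT and 1741, 2017, 2152 and 4318 in VEGF/LysM, where 1 gated cell gave 54 UMIs. The venous list did not keep rising and was at 1443 CPM with 3 or 4 gate genes in WT, against 1810 with 2.

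**Figure D5:**
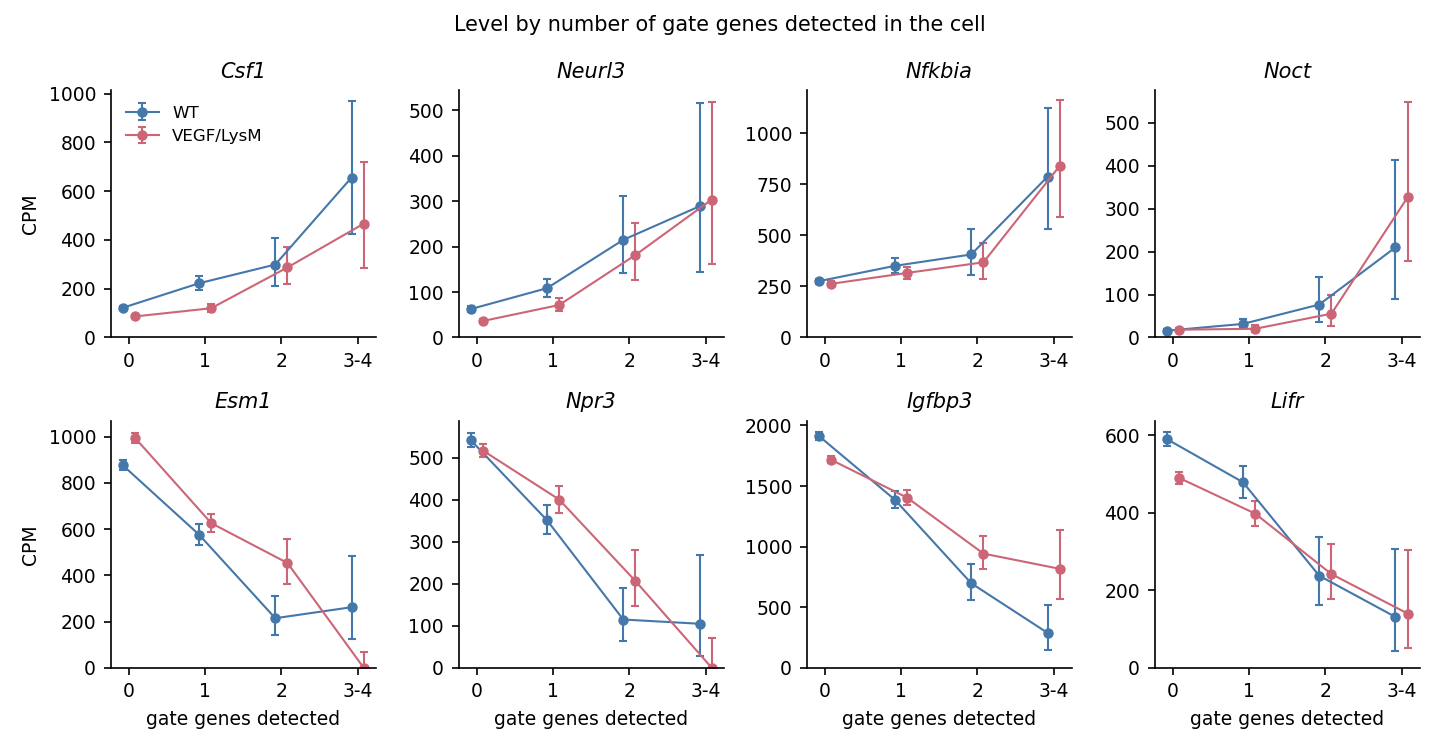
Level in CPM of 8 genes by the number of gate genes detected in the cell, for WT (blue) and VEGF/LysM (red), with 95% Poisson intervals. In both libraries Csf1, Neurl3, Nfkbia and Noct go up from cells with 0 to cells with 3 or 4 gate genes, while Npr3, Igfbp3 and Lifr go down. Esm1 in WT stops going down at 2 gate genes.

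Gated cells differed among themselves by which gate gene they carried. The contrasts given were picked from many splits and genes, rest on few cells and were not tested, so they define no subtypes. In VEGF/LysM the 10 cells with Ccl2 held Nfkbia at 1131 CPM against 389 in gated cells without it, Noct at 590 against 58.9, Pdgfa at 639 against 86.0 and Tnfaip3 at 590 against 118. In WT the 22 cells with Ccl2 held Nfkbia at 678 against 407 CPM, Pdgfa at 245 against 130 and Noct at 113 against 104, and Tnfaip3 at 75.3 against 95.3. The VEGF/LysM values rest on 12 to 23 UMIs per gene. The NF-kB list was at 3388 CPM with Ccl2 and 2453 without in WT, and at 4769 and 2331 in VEGF/LysM.

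The 15 WT and 10 VEGF/LysM cells with Sele held more Csf1, at 664 against 325 CPM in WT and 614 against 244 CPM in VEGF/LysM. Cells with Vcam1 and Icam1 only held more Esm1 than the other gated cells, at 324 against 169 CPM in WT and 555 against 191 in VEGF/LysM. They also held more of the venous list, at 2172 against 1470 CPM and 2427 against 1361. The venous list was thus higher in this most frequent kind of gated cell, and the NF-kB list was lower there (2351 against 2977 CPM and 2170 against 2904).

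Markers of other cell types differed by list. Chromaffin, fibroblast, mesothelial and Schwann cell lists each had 0 UMIs in both libraries, which allows 17.8 CPM in WT and 12.4 in VEGF/LysM for each list. Mural markers summed to 5.93 and 12.4 CPM against 43.9 and 48.4 in other cells, adrenocortical markers to 89.0 and 129 against 159 and 325, and erythroid markers to 190 and 357 against 442 and 626. Proliferation markers were at 53.4 CPM in WT (9 UMIs, 7 of them in 1 cell) against 13.1, and at 12.4 against 24.8 in VEGF/LysM. The macrophage markers left by the gate summed to 249 CPM in WT and 311 in VEGF/LysM, against 221 and 212, higher beyond the interval in VEGF/LysM (245 to 390) and not in WT (180 to 337), mostly as Mrc1 (23 and 39 UMIs) and Fcer1g (14 and 25 UMIs). Lyz2, Csf1r and Adgre1 were among the 6 of 10 at 0 in WT, and Cd68, Ms4a7 and Adgre1 among the 5 at 0 in VEGF/LysM. Lymphoid markers were higher in both libraries and summed to 131 and 95.3 CPM against 8.20 and 15.1, all in the 1 and 2 cells with Ptprc. At least 1 UMI of Ptprc, Cd3e, Cd79a, Pdgfra, Col1a1 or Pdgfrb, or 2 of 3 adrenocortical genes, was found in 2 of 80 (2.5%) and 4 of 60 (6.67%) gated cells, against 1.10% and 2.75% of other cells.

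Between the libraries, some interferon-induced and MHC class I genes were at least 1.5-fold higher in gated cells of VEGF/LysM than of WT. Several immediate early genes, Akap12 and Tead1 were lower. Csf1, Nfkbia, Relb, Noct and Neurl3 did not reach 1.5-fold, but over the NF-kB list 6 of 21 genes were higher and 6 lower. Of 6165 genes, 1086 (17.6%) were at least 1.5-fold higher in VEGF/LysM gated cells and 967 (15.7%) lower. In other endothelial cells, the counts were 93 (1.51%) and 47 (0.762%). Of 941 genes with at least 200 CPM, 51 (5.42%) were higher and 61 (6.48%) lower in gated cells. Gated sums rest on 80 and 60 cells, so a gene near 30 CPM has few UMIs in them.

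Csf1 had a log2 ratio of VEGF/LysM over WT of -0.25 in gated cells and -0.57 in other endothelial cells. Nfkbia had -0.12 and -0.08, Relb -0.20 and -0.49, Noct -0.04 and 0.04, and Neurl3 -0.19 and -0.71. None of these 5 reached 1.5-fold in gated cells. Cxcl10 had -2.33 in gated and -0.39 in other cells, and the 1 WT cell with 27 UMIs is part of that value. Over the NF-kB list, 6 of 21 genes were higher and 6 lower, where 17.6% and 15.7% of all genes were, with a median of -0.25, against -0.13 in other cells.

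Of 26 interferon-induced genes, 11 were at least 1.5-fold higher in VEGF/LysM gated cells than in WT gated cells and 0 were lower, beside 17.6% and 15.7% of all genes. The list's median log2 ratio was 0.44 in gated cells and -0.02 in other cells, and over all genes it was -0.02 and -0.03. Ifit1, an antiviral RNA-binding protein, was at 47.5 CPM in WT gated cells and 149 in VEGF/LysM, with 102 and 100 in other cells. Xaf1 was at 41.5 and 104 CPM, with 112 and 123 in other cells. Usp18, the protease that removes ISG15, had 0 UMIs in WT gated cells and 10 in VEGF/LysM. For these 3 genes the gated WT cells lay below the other cells and the gated VEGF/LysM cells near or above them. Summed, the list was at 7229 CPM (6828 to 7646) and 8966 CPM (8593 to 9352) in gated cells, against 7972 and 8272 in other cells. Whether this difference between gated and other cells would recur in further mice was not tested.

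Of 13 MHC class I genes, 5 were higher in VEGF/LysM gated cells and 0 lower, beside the same 17.6% and 15.7%, with a median of 0.45 against 0.33 in other cells. H2-T23, a non-classical class I gene, was at 119 and 294 CPM, and the immunoproteasome subunits Psmb8 and Psmb9 were at 101 and 224 CPM and 53.4 and 153 CPM. Both subunits were also higher in other VEGF/LysM endothelial cells, by 0.76 and 0.60 on the log2 scale. This difference was thus shared by cells outside the gate in direction.

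Of 14 immediate early genes, 1 was higher and 5 lower in VEGF/LysM gated cells, beside 17.6% and 15.7% of all genes. Their median was -0.36, against -0.22 in other cells. Egr1, a zinc-finger factor induced within minutes of stimulation, was at 647 CPM in WT gated cells and 257 in VEGF/LysM, with 348 and 214 in other cells. Atf3 had a log2 ratio of -1.39 (other cells -0.18) on 22 and 12 UMIs, Nr4a1 -1.62 (-0.23) on 15 and 7, and Zfp36, which destabilises cytokine mRNA, -0.98 (-0.40). The lower level in VEGF/LysM was in the same direction in and outside the gate for these 4 genes.

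Of 11 arterial genes, 7 were higher and 0 lower in VEGF/LysM gated cells, beside 17.6% and 15.7% of all genes. The comparison rests on few UMIs in WT gated cells (Fbln5 3, Mgp 1, Lgr5 and Ptn 0). The list's median log2 ratio was 1.31 in gated cells and 0.42, in the same direction, in other cells. In VEGF/LysM gated cells 59 of the list's 261 UMIs came from 1 cell, and all 15 Lgr5 UMIs were in 1 cell.

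Among single genes picked by the same interval rule, Akap12, a kinase-anchoring protein, was at 611 CPM in WT gated cells and 182 in VEGF/LysM, where other cells held 159 and 136. Tead1, a partner of YAP, was at 356 and 129 CPM against 159 and 148. Pcdh9, a protocadherin, was at 570 and 124 CPM against 225 and 97.5. Each of these 3 had its highest level of the 4 cell sets in WT gated cells. Cyp26b1 had -2.16 in gated and -1.88 in other cells, so the difference was as large outside the gate. Naa50 (20 and 5 UMIs), Lzic (14 and 1), Gar1 (11 and 2) and Epha6 (11 and 2, with 10 of the 11 in 1 cell) complete the lower genes beside Cxcl10 and Egr1.

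Of the 10 genes named as higher in VEGF/LysM gated cells, Cmss1 was spread over the cells, at 742 CPM in WT and 2570 in VEGF/LysM in 59 cells of each. Its log2 ratio of 1.79 was matched by 1.64 in other cells. Most of the others rested on few cells. Mecom, a haematopoietic and endothelial transcription factor, was at 77.2 and 431 CPM on 104 UMIs in 11 VEGF/LysM cells, 37 of them in 1 cell. Tox held 47 UMIs in 9 cells, Nuak1 24 UMIs in 11 cells, Mgp 22 UMIs in 4 cells and Ptprj 30 UMIs, 18 of them in 1 cell. All 15 Lgr5 UMIs were in 1 cell, as were 533 of the 659 of Gm26870, and Gm10800 and Gm10801 came from 3 and 2 cells.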

How the data were processed

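UMI counts per gene and cell were deposited by the authors as raw whole numbers without normalization. Cell Ranger 7.0.1, Seurat and the mm10 genome are named, per the submitters' processing notes, and the matrices name Cell Ranger 7.0.0, per the file headers. The annotation release, intron and strand settings and cell calling are not stated in these sources. Gene positions came from GENCODE M21, which matched 54723 of 54838 gene IDs.

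The filter kept barcodes with a minimum of 500 UMIs and 300 genes whose mitochondrial share did not exceed 15% (6134 of 6276 WT, 3793 of 3807 VEGF/LysM). Doublets were not removed in the reported values: Scrublet (scanpy 1.11.5) called 0 WT and 3 VEGF/LysM barcodes, so an alternative left out the 315 and 116 highest scores. Per library, UMIs of gated and of other endothelial cells were added up and expressed as CPM (Python 3.11.15, SciPy 1.17.1). Poisson intervals for CPM, conditional binomial intervals for ratios and Clopper-Pearson intervals for shares were exact, at 95%, and the limit for a count of 0 was 3 counts. Genes were compared from a mean of 30 CPM over the 4 cell sets and called at 1.5-fold. The procedure was tested on simulated data. Each group had 1 library, so no test was run. Shares were also given with each cell thinned to 1000 UMIs.

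Named genes were the 12 whose interval bound nearest to 0, in the library where it was nearest, was farthest from 0 in each direction, without gate, mitochondrial, ribosomal protein and other-cell marker genes. Between libraries they were the 10 in each direction by the same bound, and from each list up to 6 members by size, or any member of the adhesion, chemokine, NF-kB and cytokine receptor lists. A few members were added to the lists' examples after their values had been seen. The cells, the 33 gene lists and the rules were chosen with earlier results of these data known. Alternatives changed the depth, cell filter, doublets, gate, scaling, minimum, fold, comparator and cells with other markers. Those added after seeing the data were a minimum of 200 CPM, each gene's highest gated cell left out, shared barcodes left out and a readout thinned to 1000 UMIs.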

Additional observations from a re-analysis of the deposited data

Results flagged for a closer look

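Of 244 named or listed genes, 4 had a ratio of gated over other endothelial cells above 0 in one library and below 0 in the other, with both counting intervals clear of 0. The difference between the libraries was not tested for any of them. Fabp5, a fatty acid carrier, had a log2 ratio of 0.49 in WT (43 UMIs, 17 of them in 1 cell) and -1.05 in VEGF/LysM (50 UMIs). Ifit1 had -1.10 in WT (8 UMIs) and 0.57 in VEGF/LysM (36 UMIs). Lzic had 1.98 in WT (14 UMIs) and -2.54 in VEGF/LysM (1 UMI). Naa50, an acetyltransferase subunit, had 1.01 in WT (20 UMIs) and -1.33 in VEGF/LysM (5 UMIs).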

How the results depend on the processing

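No paired analysis was possible because each group had 1 library. The share of gated cells was 1.35% in WT and became 1.01% thinned to 1000 UMIs, 1.86% with the stricter cell filter, 0.288% with at least 3 gate genes, and 1.07%, 0.593% and 0.559% without Ch25h, Vcam1 or Icam1 in the gate. In VEGF/LysM it was 1.67% and became 0.724% thinned, 0.223% with 3 genes, and 0.780% and 0.362% without Vcam1 or Icam1. The difference of 0.317 points (VEGF/LysM minus WT) turned to -0.287 thinned, -0.160 with the stricter filter, -0.0649 with 3 genes and -0.197 without Icam1. The 176 higher and 146 lower genes became 637 and 485 with the thinned gate, 639 and 673 with 3 gate genes, 324 and 318 at 15 CPM, 83 and 63 at 60 CPM, 17 and 14 at 200 CPM, 32 and 36 at 2-fold, 388 and 340 with the thinned readout, and 57 and 459 with each gene's highest gated cell left out, which lowers every gated sum. Higher NF-kB genes went from 8 to 5 at 60 CPM, 1 at 200 CPM, 4 at 2-fold, 5 against cells with Bgn or Sema3d, 5 with the thinned readout and 3 without the highest cell, and higher chemokine genes from 4 to 2 at 60 CPM and 1 at 200 CPM. Between libraries, the 1086 higher and 967 lower genes became 2305 and 1980 with the thinned gate, 1931 and 1891 with 3 gate genes, 1812 and 1570 at 15 CPM, 469 and 464 at 60 CPM, 51 and 61 at 200 CPM and 448 and 360 at 2-fold, and the lower count 1673 with the thinned readout. The cause of these changes was not tested.

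Of 777 values of single named genes under the alternatives, 677 stayed within their counting interval with the same sign, 90 moved and 10 changed sign. All 10 were against other cells with Bgn or Sema3d: Esm1 (0.11 in WT, 0.35 in VEGF/LysM), Mal (0.51 and 0.56) and, in VEGF/LysM, Npr3 (0.44), Igfbp3 (0.31), AC167229.1 (0.37), Gm14226 (0.50), Gzmk (0.27) and Flrt3 (-0.10). Of 259 values between libraries, 238 stayed, 18 moved and 3 changed sign: Gm26870 (-3.11) and Cxcl10 (0.64) with 3 gate genes, and Epha6 (0.49) in gated cells with Plvap only. A gene's ratio does not depend on the minimum or the fold. Values at 15, 60 and 200 CPM and at 2-fold could therefore only stay, 47 per setting for gated over other and 18 between libraries. Part of the 677 and the 238 was thus fixed in advance. A further 100 values had 0 gated UMIs and gave no fold. The 140 gated cells limit the precision of every gated level.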
